A study of Mus musculus with 13 samples.

Results

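Icam1 and the other endothelial adhesion molecules of the olfactory bulb were followed in mice exposed to PM2.5, the fine fraction of airborne dust. The members are 7 genes of the 34745 in the deposited expression table: Icam1, Icam2, Vcam1, Sele, Selp, Vwf and Pecam1, matched by symbol. The members were chosen by their measured change: the higher levels of Icam1, Sele and Vwf at the higher dose, and of Sele at the lower dose, were known from earlier results of these data. Member values at the higher dose, and Sele at the lower, are therefore given as a description with no p-value, and where a call of theirs is counted it is evidence of nothing further. RNA of 13 samples from C57BL/6 mice, wild type and 7 to 8 weeks old per the labels, was sequenced with 1 library per sample. The first set held 4 control libraries (no treatment) and 3 libraries of mice given 3 mg/kg PM2.5. The second set held 3 control libraries (no treatment) and 3 libraries of mice given 10 mg/kg PM2.5, and both doses carry the suffix "/3 day". The labels do not explain that suffix or name a route. No label says that replicates are separate animals, so p-values rest on the spread between these samples, which may be technical.

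Leukocytes leave the blood in steps, and each step has its own endothelial molecule. Selectins on the vessel wall catch passing leukocytes by their surface sugars and let them roll. ICAM and VCAM proteins, which belong to the immunoglobulin superfamily, then bind leukocyte integrins and hold the cell firmly, and PECAM1 at the junctions between endothelial cells takes part in the passage through the wall. Von Willebrand factor tethers platelets and is stored with P-selectin in the Weibel-Palade bodies of endothelial cells. Sele, Icam1 and Vcam1 are classic targets of NF-kB in endothelium exposed to inflammatory cytokines, whereas Pecam1 and Icam2 are made by resting endothelium. The vessels of healthy brain carry little of the inducible kind.

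Promoter sequence was at hand for the 3 members below, from RefSeq (GRCm38.p6), and is shown because these genes were higher in the exposed libraries of both sets. Each line gives the 250 bases before the RefSeq start on the plus strand, 5′ to 3′. Capitals mark matches, on either strand, to a short form of the NF-kB site (GGNNNTTCC), to the AP-1 site (TGANTCA) or to the TATA box (TATAAA). The windows are chr9:21015690-21015939 for Icam1, chr1:164047984-164048233 for Sele and chr1:164115014-164115263 for Selp.
Icam1: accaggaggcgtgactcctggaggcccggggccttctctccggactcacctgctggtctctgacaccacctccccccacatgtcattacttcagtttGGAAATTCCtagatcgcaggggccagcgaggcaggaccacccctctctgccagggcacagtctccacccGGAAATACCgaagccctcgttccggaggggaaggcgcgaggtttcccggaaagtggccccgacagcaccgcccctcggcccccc
Sele: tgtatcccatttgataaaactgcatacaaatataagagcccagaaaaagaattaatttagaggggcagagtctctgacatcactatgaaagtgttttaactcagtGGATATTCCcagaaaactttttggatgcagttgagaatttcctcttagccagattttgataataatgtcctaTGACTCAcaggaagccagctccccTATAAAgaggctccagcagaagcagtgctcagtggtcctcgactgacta
Selp: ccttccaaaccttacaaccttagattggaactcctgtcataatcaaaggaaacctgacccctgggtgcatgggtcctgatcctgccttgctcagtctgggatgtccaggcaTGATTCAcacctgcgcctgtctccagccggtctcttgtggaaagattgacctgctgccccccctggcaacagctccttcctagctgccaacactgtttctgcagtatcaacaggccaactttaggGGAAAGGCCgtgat
The Icam1 window held 2 matches to the short NF-kB form, GGAAATTCC on the promoter strand (bases 153 to 145 before the start) and GGAAATACC, which matches on the opposite strand (bases 84 to 76). The Sele window held GGATATTCC (bases 145 to 137), 1 AP-1 site (TGACTCA, bases 73 to 67) and a TATA box (bases 49 to 44). The Selp window held 1 short NF-kB form on the opposite strand (GGAAAGGCC, bases 14 to 6) and 1 AP-1 site (TGATTCA, bases 139 to 133). Of 32851 promoter windows of the same length, 15.7% held the short NF-kB form, 6.75% the AP-1 site and 12.4% the TATA box. The stricter NF-kB consensus of 10 letters (3.9% of windows) and the site TGACGTCA of CREB (1.55%) had no match in these letters of the 3 windows. The GC box GGGCGG (32.7% of windows) matched once, in Icam1 on the opposite strand. These are letter matches, and binding was not measured.

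Library totals ran from 13032834 to 14665696 counts in the first set and from 15387870 to 26989267 in the second. Markers of the olfactory bulb were present in each library, among them Doc2g (159.5 to 285 CPM) and Tbx21 (24.4 to 43.5 CPM) of mitral and tufted cells and Th (122 to 190.3 CPM) of periglomerular cells. CPM, the counts-per-million scale, divides each count by the TMM-scaled library total. The labels call the mice male. The X-inactivation transcript Xist stood at 2280.3 to 2784 CPM (before TMM scaling) in the first set and at 0.0977 to 0.551 in the second, and 4 Y-linked genes summed to at most 0.213 in the first set and to 173 to 226 in the second. The libraries of the first set therefore go against the label, and dose, set and this difference between the sets cannot be told apart. Each dose was set against the controls that share its set, with all libraries kept.

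The adhesion molecules parted into those made in control bulbs and those nearly absent from them. FPKM values, which divide by transcript length, were used to compare levels between genes. In the first-set controls Pecam1 stood highest at 2.15 ± 0.291 FPKM (SD, n = 4), followed by Vcam1 (2.09 ± 0.141), Vwf (1.70 ± 0.257), Icam1 (1.42 ± 0.240) and Icam2 (0.580 ± 0.158). Pecam1 and Vcam1 overlapped in range, as did Vwf and Icam1, while Icam2 lay below these and above the selectins. In the second-set controls the order was Pecam1 (2.04 ± 0.341 FPKM, SD, n = 3), Vcam1 (1.52 ± 0.0738), Icam2 (0.678 ± 0.148), Icam1 (0.555 ± 0.0590) and Vwf (0.440 ± 0.176), and the ranges of the last 3 overlapped neighbour by neighbour. Selp and Sele were at or near 0 in both control groups.

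At 10 mg/kg Icam1 stood first, at 3.63 ± 0.354 FPKM (SD, n = 3), above the range of Vcam1 (2.84 ± 0.456). Pecam1 came next at 2.03 ± 0.0454 FPKM, then Vwf (1.42 ± 0.326), Icam2 (0.625 ± 0.170), Sele (0.422 ± 0.0344) and Selp (0.133 ± 0.0636), with no overlap between any neighbours in the order. At 3 mg/kg Vcam1, Icam1, Pecam1 and Vwf stood at 2.33, 2.19, 2.05 and 1.97 FPKM with overlapping neighbours, and Icam2, Sele and Selp followed at 0.639, 0.102 and 0.0526 FPKM, each apart from the next. Per length, E-selectin transcript at the higher dose was thus within reach of Icam2, a gene of resting endothelium: the highest Sele library (0.458 FPKM) lay just below the lowest Icam2 library (0.491 FPKM).

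**Figure D1:**
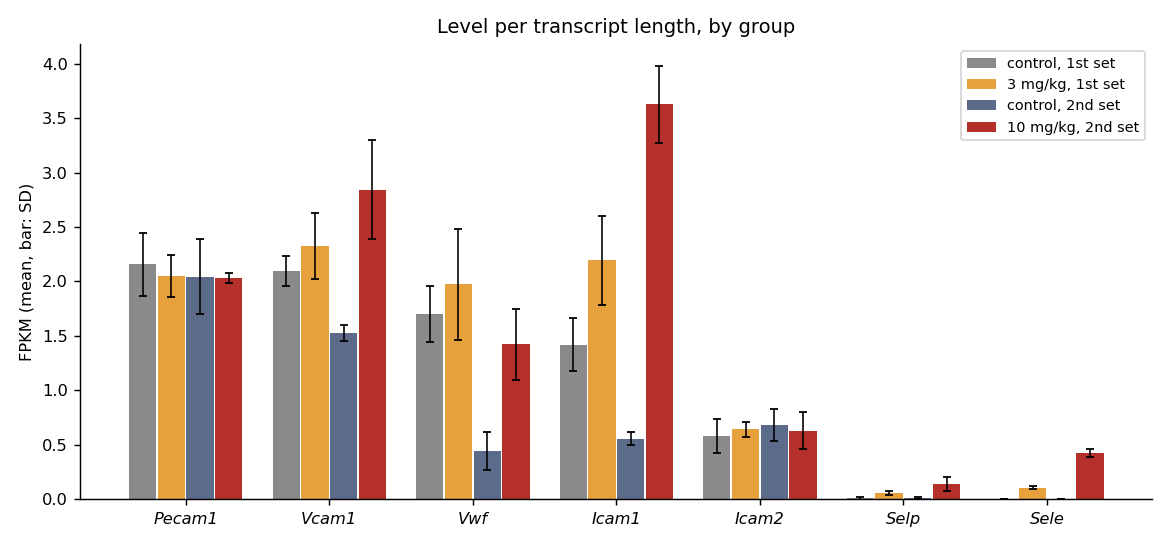
Mean FPKM of each member (y axis, level per transcript length; bars, error lines are the SD over 3 or 4 libraries) in the 4 groups. Pecam1 stays near 2 FPKM in each group, Icam1 runs from 0.555 FPKM in the second-set controls to 3.63 FPKM at 10 mg/kg, and Sele and Selp are close to 0 in both control groups.

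Sele, the gene of E-selectin, which endothelium makes when activated (ENSMUSG00000026582, mm10 chr1:164048234-164057677), had no count in any of the 7 control libraries. The 3 libraries at 3 mg/kg held 5, 4 and 4 counts (0.334, 0.278 and 0.271 CPM). The 3 libraries at 10 mg/kg held 25, 27 and 29 counts (1.24, 1.36 and 1.16 CPM). Every exposed library had Sele reads and no control library did, and the exposed libraries of a dose lay close together. A count of 0 over the control group allows up to 0.0537 CPM in the first set and 0.0524 CPM in the second, taking 3 counts over the group as the floor. The mean Sele level was 5.48 times its floor at 3 mg/kg and 23.9 times at 10 mg/kg. These ratios leave out the counting error of the exposed libraries (13 and 81 counts), so they are not strict lower bounds. On the CPM scale the libraries at 10 mg/kg held 4.23 times as much Sele as those at 3 mg/kg (95% exact interval 2.34 to 8.28, which covers counting error only), in another set of mice.

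Selp, the P-selectin gene of endothelium and platelets, lies next to Sele on the same chromosome (ENSMUSG00000026580, mm10 chr1:164115264-164150026). Its counts were 2, 0, 0 and 0 in the first-set controls and 5, 6 and 3 at 3 mg/kg. In the second set they were 0, 0 and 2 in controls and 25, 9 and 20 at 10 mg/kg. The exposed libraries lay above the controls in both sets, and the spread at 10 mg/kg was wide (0.453 to 1.24 CPM). Pooled over libraries, Selp was 8.86 times the control level at 3 mg/kg (95% exact interval 2.04 to 80.3) and 23.8 times at 10 mg/kg (6.27 to 201), intervals that cover counting error only and rest on 2 control counts in each set. Selp was the 1 member too low to pass the filter for the test across genes. Annotated genes on the opposite strand overlap Selp (Gm16587 and Gm16548), Icam1 (Gm47079) and Vcam1 (Gm43109), and strand use in the authors' counting is not given, so reads of these partners cannot be told apart from those of the members.

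Icam1, whose product binds the leukocyte integrins LFA-1 and Mac-1 (ENSMUSG00000037405, mm10 chr9:21015960-21028797), had reads in every library. In the second-set controls it stood at 1.58, 1.31 and 1.42 CPM, and at 10 mg/kg at 8.39, 10.2 and 9.54 CPM. In the first-set controls it stood at 3.25, 3.38, 3.14 and 4.39 CPM, and at 3 mg/kg at 5.61, 4.44 and 6.44 CPM. Exposed libraries lay above the controls of their set at both doses, by a wide margin at 10 mg/kg and by 1 narrow gap at 3 mg/kg (4.44 against 4.39 CPM). The log2 fold change was 2.71 (SE 0.21) at 10 mg/kg. At 3 mg/kg it was 0.63 (SE 0.18), which edgeR's quasi-likelihood test did not call (unadjusted p = 0.00390, adjusted p = 1). In a bulk sample, more endothelial cells and more RNA per cell cannot be told apart, which holds for each member.

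Vcam1, the endothelial ligand of the integrin VLA-4, which astrocytes and neural stem cells also make (ENSMUSG00000027962, mm10 chr3:116109949-116129688), stood at 15.7, 14.8 and 14.6 CPM in the second-set controls. At 10 mg/kg it stood at 29.1, 22.95 and 31.7 CPM. In the first-set controls it stood at 19.1, 19.5, 19.2 and 21.7 CPM and at 3 mg/kg at 25.3, 20.6 and 20.5 CPM. The groups of the second set did not overlap, and those of the first set did, with 1 library at 3 mg/kg above the rest. The log2 fold change was 0.89 (SE 0.13) at 10 mg/kg and 0.16 at 3 mg/kg (SE 0.12, adjusted p = 1 with edgeR's quasi-likelihood test). The astrocyte list held 1 of 12 tested genes that rose at 10 mg/kg (Gfap, log2 fold change 1.36) and had a median of 0.26. Its summed level was 4448 to 4877 CPM at 10 mg/kg against 3231 to 4147 CPM in the controls of the set, and its part in the Vcam1 level was not tested.

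Icam2 and Pecam1, members of resting endothelium, overlapped between exposed and control libraries at both doses. Pecam1, a junction protein also found on platelets and leukocytes (ENSMUSG00000020717, mm10 chr11:106654217-106750628), stood at 21.6, 15.9 and 18.5 CPM in the second-set controls and at 18.4, 18.97 and 18.2 CPM at 10 mg/kg. In the first set its controls stood at 22.8, 17.9, 17.2 and 18.1 CPM and the libraries at 3 mg/kg at 16.5, 20.1 and 17.9 CPM. The log2 fold change of Pecam1 was -0.01 at 10 mg/kg (approximate 95% interval -0.30 to 0.28) and -0.06 at 3 mg/kg (-0.34 to 0.22). Changes of Pecam1 within these bounds were not detectable with these libraries.

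Icam2, an ICAM of resting endothelium and platelets (ENSMUSG00000001029, mm10 chr11:106377656-106388075), stood at 2.30, 2.44 and 1.54 CPM in the second-set controls and at 1.74, 1.51 and 2.52 CPM at 10 mg/kg. In the first set the controls ran from 1.06 to 2.11 CPM and the libraries at 3 mg/kg from 1.76 to 2.15 CPM. Its log2 fold change was -0.12 at 10 mg/kg (95% interval -0.75 to 0.50) and 0.15 at 3 mg/kg (-0.48 to 0.77), wider bounds than those of Pecam1 at 15 to 63 counts per library. The ratio of Icam1 to Icam2, log2(CPM + 0.5), stood at 2.05 ± 0.343 at 10 mg/kg and at -0.405 ± 0.303 in the controls of the set (SD, n = 3 each). Per length, Icam1 and Icam2 overlapped in those controls (0.496 to 0.614 and 0.507 to 0.773 FPKM), and at 10 mg/kg Icam1 (3.25 to 3.95 FPKM) lay above Icam2 (0.491 to 0.817 FPKM).

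Vwf, which encodes von Willebrand factor (ENSMUSG00000001930, mm10 chr6:125546774-125686679), stood at 12.6, 5.84 and 8.14 CPM in the second-set controls and at 29.2, 34.9 and 21.8 CPM at 10 mg/kg. In the first set its controls stood at 36.6, 38.6, 30.0 and 27.7 CPM and the libraries at 3 mg/kg at 28.5, 38.6 and 48.8 CPM. The low values were the 3 second-set controls alone: the libraries at 10 mg/kg ran from 21.8 to 34.9 CPM, over a range shared with the untreated libraries of the first set (27.7 to 38.6 CPM). The log2 fold change was 1.71 (SE 0.28) at 10 mg/kg and 0.22 (SE 0.24, adjusted p = 1 with edgeR's quasi-likelihood test) at 3 mg/kg. With 1 library left out, the call at 10 mg/kg was lost without control replicate 3, exposed replicate 1 or exposed replicate 2 of the second set, with fold changes of 1.66, 1.69 and 1.53 on the log2 scale.

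**Figure D2:**
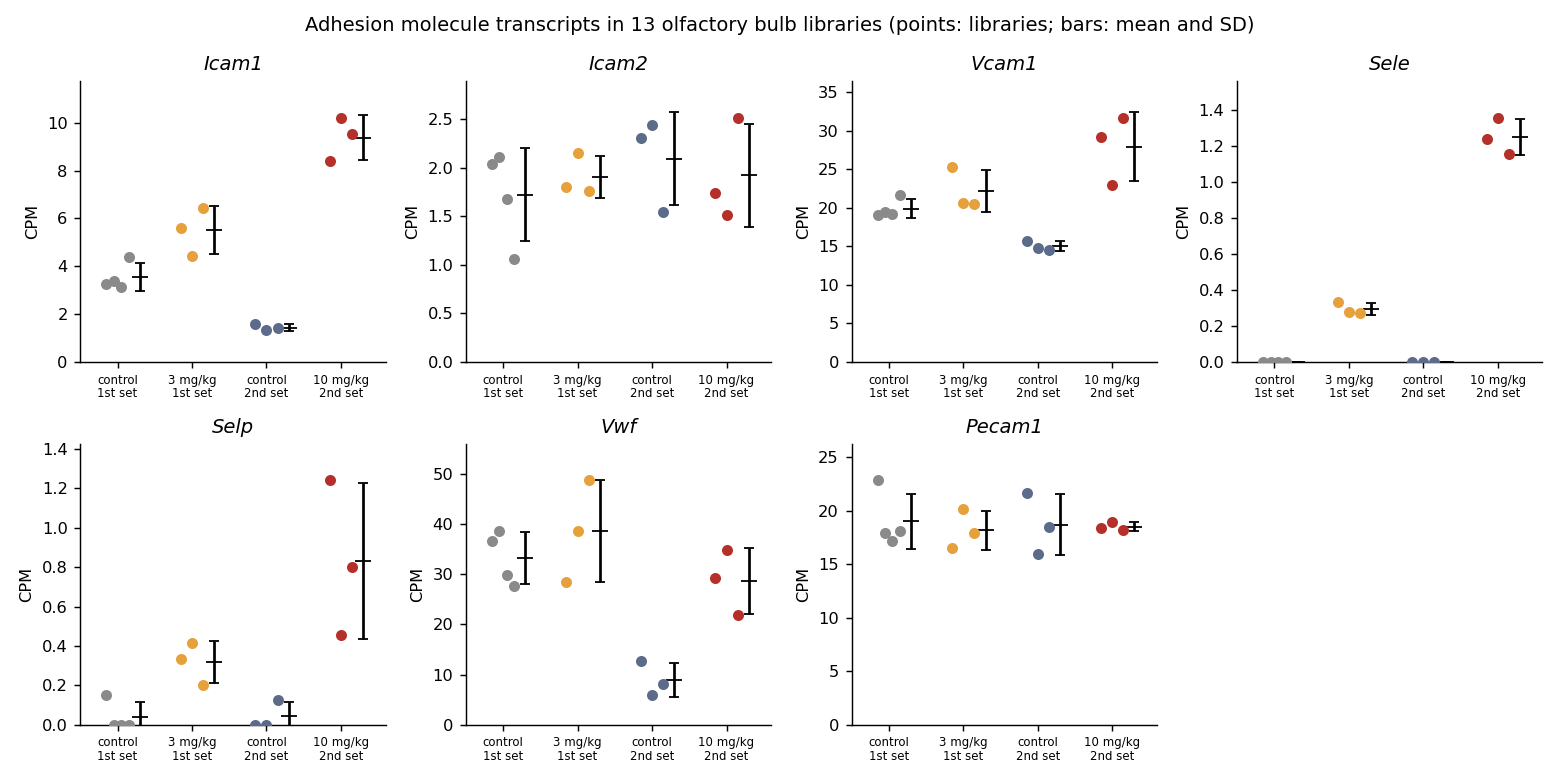
CPM of each member (y axes, each from 0) in the 4 groups (x axis); each point is 1 library, and bars give the mean and SD of the group. Icam1, Sele and Selp lie above their controls at both doses and Vcam1 and Vwf at 10 mg/kg, while Icam2 and Pecam1 overlap, and the 3 second-set controls of Vwf lie below all other libraries.

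In counts, 4 of the 6 tested members were called higher at 10 mg/kg (Icam1, Vcam1, Sele and Vwf), where 0.521% of 17467 genes were called higher and 0.641% in either direction. The members were chosen with this comparison known, and nothing is read from their count. The count over all genes was 112, and it fell to 21 without control replicate 3 and to 65 without exposed replicate 2 of the second set, and to 70 without control replicate 2 of the first. All exposed libraries lay above all controls for 5 of 7 members and below them for none, against 6.08% and 4.36% of tested genes. Selp, 1 of the 5, is not among the tested genes, and nothing is read from this count either. Icam1 was the 1 member called when the second set was fitted by itself. At 3 mg/kg no member was called and no gene of 17467 was (0%) by edgeR's quasi-likelihood test. In that test 429 genes, Icam1 among them, had an unadjusted p under 0.05. Sele passed the filter only through the libraries at 10 mg/kg (1.16 to 1.36 CPM, against 0.271 to 0.334 CPM at 3 mg/kg). It was also chosen for its rise at 3 mg/kg, so any call of Sele at 3 mg/kg is evidence of nothing further. At this dose the DESeq2 Wald test called 17 genes with no member among them, but it gave Sele no adjusted p, so Sele could not be called. With limma-voom 2 genes were called, 1 of them Sele. Among the 7 members 3 (Icam1, Sele and Selp) lay at this dose wholly above their controls and none below, against 3.71% and 2.91% of tested genes. The place of Sele was known when the members were chosen, and Selp is not among the tested genes, so nothing is read from this count.

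The difference between the responses at the doses, fitted in the same model, was 2.08 on the log2 scale for Icam1 (approximate 95% interval 1.48 to 2.67). It was 1.49 for Vwf (0.69 to 2.29), 0.74 for Vcam1 (0.36 to 1.12), 0.05 for Pecam1 (-0.35 to 0.46) and -0.27 for Icam2 (-1.16 to 0.62). Icam1 was the 1 gene called of 17467 (0.00573%), and since it was chosen for its rise at 10 mg/kg this is a description. The call held without replicate 1 of the second-set controls and without exposed replicate 1 of the second set, and was lost without any other 1 of the 13 libraries, while the value stayed between 1.94 and 2.20. The control levels of both sets enter this difference.

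The untreated bulbs of the sets lay apart in Vwf, Icam1 and Vcam1. The second-set controls are also the libraries against which the rise at 10 mg/kg was seen, and that choice favours genes low in them, so these values too are a description with no p-value. Second-set against first-set controls, the log2 fold change was -1.92 (SE 0.27) for Vwf, -1.31 (SE 0.21) for Icam1 and -0.40 (SE 0.12) for Vcam1. For these 3 genes every second-set control lay below every first-set control, a placing seen in 14.6% of tested genes, while no member lay wholly above (15.8%). Pecam1 stood at -0.03 (95% interval -0.30 to 0.25) and Icam2 at 0.29 (-0.32 to 0.90), and Sele and Selp were at or near 0 in both. Over all genes edgeR called 19.3% in either direction and 8.74% lower (3364 genes called, and 1340 without control replicate 2 of the second set), and 3 of 6 tested members were called lower, a count from which nothing is read. The Vcam1 call was lost without any 1 of the first-set controls or without control replicate 2 or 3 of the second set.

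**Figure D3:**
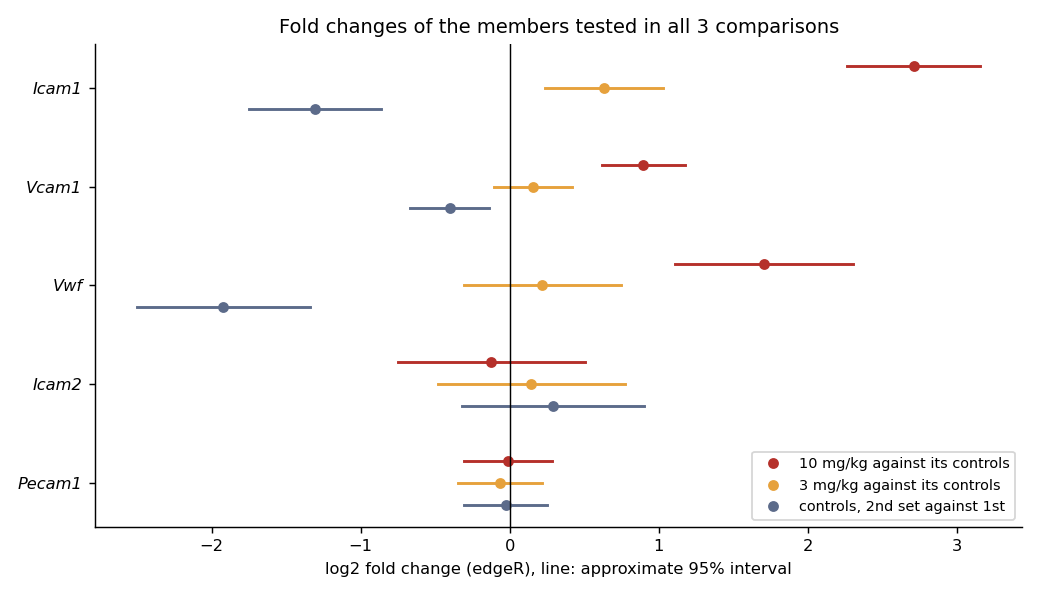
Log2 fold change (x axis, dots, with approximate 95% intervals as lines) of 5 members in 3 comparisons. Icam1, Vcam1 and Vwf lie above 0 at 10 mg/kg and below 0 between the untreated controls, and the intervals of Icam2 and Pecam1 cross 0 in each comparison.

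The untreated sets also differed in many endothelial transcripts. Of 23 tested endothelial identity genes, 12 were called lower in the second-set controls and none higher, where 8.74% of all tested genes were called lower. The list's median log2 fold change was -0.63, against -0.02 over all genes, and 5 of the 23 had a positive value (up to 0.26, S1pr1). Those of smallest p were Cdh5, the cadherin of endothelial junctions (-1.09, SE 0.12, adjusted p = 1.9e-04 with edgeR), and Abcb1a, an efflux pump of brain capillaries (-0.93, SE 0.16, adjusted p = 0.00281). Of 15 pericyte, smooth muscle and fibroblast genes 12 were lower as well (median -0.87). The part of these differences in the member levels was not tested beyond the ratios that follow. An endothelial index, the mean log2(CPM + 0.5) of the 23 genes, stood at 4.10 to 4.24 in the first-set controls and at 3.52 to 3.94 in the second-set controls.

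Relative to this index, the second-set controls minus the first-set controls gave -1.41 for Vwf and -0.56 for Icam1 on the log2 scale, with no overlap between the groups. The same difference was 0.10 for Vcam1, whose groups overlapped. It was 0.46 for Pecam1 and 0.72 for Icam2, both with every second-set control above every first-set control. With the index as a covariate in edgeR the log2 fold change between the control sets was -1.01 for Icam1 and -1.03 for Vwf, and no member was called. Over all genes the count called fell from 3364 to 23 in that fit. The index did not overlap between the control sets, so the fit cannot tell the index from the set.

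Exposed and control libraries of a set overlapped in the index. At 10 mg/kg it stood at 3.604 to 3.91 against 3.52 to 3.94 in the controls, and at 3 mg/kg at 3.97 to 4.14 against 4.10 to 4.24. Of the 23 endothelial identity genes none was called at either dose, and the medians were 0.12 at 10 mg/kg and -0.14 at 3 mg/kg. Icam1 minus the index stood at -0.45, -0.49 and -0.44 at 10 mg/kg and at -2.89, -2.71 and -2.58 in the controls of the set, a difference of 2.26. Vwf minus the index differed by 1.59 at 10 mg/kg and Vcam1 by 0.77. Icam1 minus the index was higher at 3 mg/kg by 0.69 (exact two-sided permutation p = 0.0571, adjusted over 36 ratio tests 0.157), with all 3 exposed libraries above all 4 controls.

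**Figure D4:**
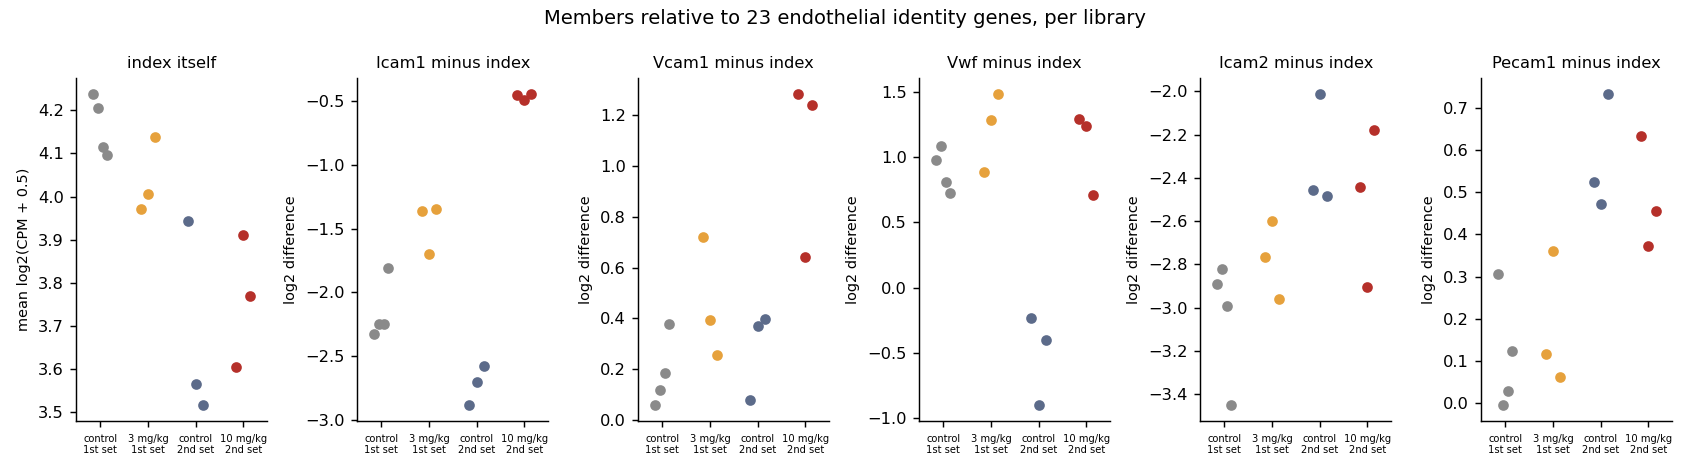
Mean log2(CPM + 0.5) of 23 endothelial identity genes in each library (left panel) and the log2 difference of 5 members from it (other panels; points are libraries, and y axes do not start at 0). The index is lower in the second set, and at 10 mg/kg Icam1, Vcam1 and Vwf lie above the controls of their set relative to the index.

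Other genes of the adhesion cascade were mostly not called. Of 10 tested leukocyte integrin genes and adaptors none was called at either dose (medians 0.32 at 10 mg/kg and 0.00 at 3 mg/kg). Itgb2, the shared beta chain of the ICAM1-binding integrins, stood at 0.71 (SE 0.19, adjusted p = 0.147 with edgeR) and Fermt3, the integrin activator kindlin-3, at 0.79 (SE 0.24, adjusted p = 0.199) at 10 mg/kg. Itgam, the alpha chain of Mac-1, is listed as a pair of overlapping genes and was left out of the counts. Reads fell on the second entry in some libraries only (262 and 67 counts in exposed replicates 1 and 2 of the second set, 37 in exposed replicate 3 of the first, and at most 3 elsewhere), and both entries together stood at 17.3 to 28.2 CPM at 10 mg/kg and at 13.5 to 17.1 CPM in the controls.

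Of 11 tested selectin ligand genes none was called (medians 0.02 and 0.03 at the higher and lower dose), with Podxl, a sialomucin of endothelium, at 0.60 (adjusted p = 0.20) and Cd44, the hyaluronan receptor, at 1.04 (adjusted p = 0.237) at 10 mg/kg with edgeR's test. Of 13 other immunoglobulin adhesion molecules none was called, with Alcam at 0.50 (adjusted p = 0.243 with edgeR) at 10 mg/kg and Mcam at -0.38 (adjusted p = 1) at 3 mg/kg. The list's medians were 0.03 and -0.05. Of 14 tested genes of Weibel-Palade bodies and of von Willebrand factor partners none was called (medians 0.13 and -0.03), and Plat, tissue plasminogen activator, stood at 0.36 (SE 0.10, adjusted p = 0.171 with edgeR) at 10 mg/kg. Among 13 cytoplasmic linkers of the adhesion molecules 1 rose at 10 mg/kg, Msn, the ERM protein moesin that ties ICAM1 and VCAM1 to actin (0.66, SE 0.12, adjusted p = 0.0205 with edgeR), and none was called at 3 mg/kg.

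Of 15 tested inducing cytokines and receptors 2 rose at 10 mg/kg and none at 3 mg/kg. These were Osmr, the oncostatin M receptor (1.62, SE 0.21, adjusted p = 0.00241 with edgeR), and Il1r1, the signalling receptor of interleukin 1, which brain endothelium carries (1.14, SE 0.24, adjusted p = 0.0431). All 15 had a positive fold change at 10 mg/kg (median 0.61) and 13 at 3 mg/kg (median 0.18), where Il1r1 stood at 0.96 and Osmr at 0.78 (adjusted p = 0.50 for both with edgeR). Tnf, Il6, Ifng, Lta, Ltb, Il4 and Il13 were too low to be tested. Of 24 NF-kB and other promoter factors 1 rose at 10 mg/kg, Cebpd (1.49, SE 0.26, adjusted p = 0.0166 with edgeR), and none was called at 3 mg/kg (medians 0.22 and 0.02). Over all tested genes 0.521% were called higher at 10 mg/kg. As with all the lists, these were written with earlier results of these data known, so their calls and signs are a description and no independent evidence.

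Of 12 genes of venous endothelium other than members, 4 rose at 10 mg/kg, among them Tmem252 (3.73), Ch25h, which makes an oxysterol (3.05), and Il1r1, with edgeR adjusted p of 0.00943, 0.0128 and 0.0431 for these. Il1r1 is in the list of cytokines and receptors as well. The list's median was 0.95 at 10 mg/kg and 0.28 at 3 mg/kg, where none was called, and of 13 arterial genes none was called at either dose (medians -0.06 and -0.02). Gkn3, an arterial gene, stood at -1.38 (SE 0.40, adjusted p = 0.182) at 10 mg/kg and at -1.24 (adjusted p = 1) at 3 mg/kg with edgeR. Several venous genes were known to be higher in these data when the list was written, so it is no independent evidence, and the lists were not tested against each other. Over all 17467 genes the median was -0.01 at 10 mg/kg and 0.00 at 3 mg/kg.

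**Figure D5:**
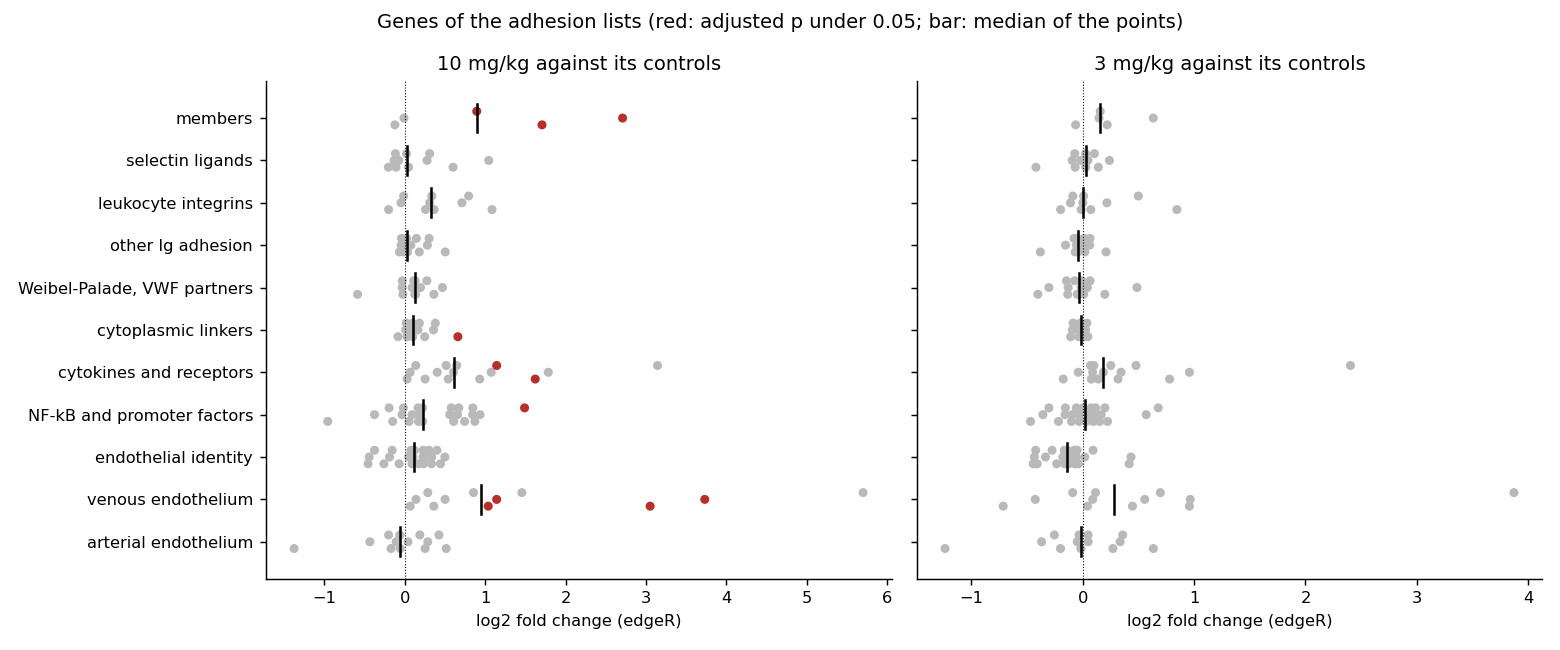
Log2 fold change (x axes) of the tested genes of the member, adhesion, cytokine, factor and endothelial lists (points; red where the adjusted p is under 0.05; short bars are medians of the points shown) at 10 mg/kg (left) and 3 mg/kg (right). Sele, whose controls held no count, Itgam and the blood cell, glial and mural lists are not drawn. Points drawn past the test at 10 mg/kg lie in the member, linker, cytokine receptor, promoter factor and venous lists, and none does at 3 mg/kg.

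Blood cells also carry some members, so their markers were set beside them. Of 22 leukocyte genes 6 were tested, and 2 rose at 10 mg/kg: S100a9 (2.59) and Ptprc (1.147), with edgeR adjusted p of 0.00845 and 0.0315. The list summed to 19.9 to 25.6 CPM at 10 mg/kg against 7.78 to 9.04 CPM in its controls, and to 16.65 to 24.3 CPM at 3 mg/kg against 11.9 to 14.2 CPM. Ptprc alone had a mean of 8.72 CPM at 10 mg/kg and 3.96 CPM in its controls, and of 10.7 CPM at 3 mg/kg and 6.93 CPM in its controls. In a bulk sample, reads of blood leukocytes and of bulb cells that make the same genes cannot be told apart, so the sum is no measure of blood leukocytes. S100a8, the partner of S100a9 in neutrophils, stood at 2.04 (adjusted p = 0.0861 with edgeR), and all 6 tested genes had a positive fold change at both doses. Among the untested neutrophil and monocyte genes Ngp reached 21 counts in a library, Plac8 23 and Retnlg 14, while Ly6g had no read in 10 of 13 libraries and the T cell gene Cd8a none in 8. The part of these cells in the Icam1 level was not tested. Of 15 platelet genes, 6 were tested and none was called, with Pf4, a platelet granule chemokine, at 1.39 (adjusted p = 0.353 with edgeR) at 10 mg/kg. Without Nrgn, which neurons make, the platelet list summed to 14.4 to 17.8 CPM at 10 mg/kg and 13.95 to 18.15 CPM in its controls, a sum to which Gp1bb (up to 9.43 CPM) and Itgb3 contribute most. Ppbp, Gp5 and Tubb1 reached 14, 11 and 8 counts in a library, and Gp6, Gp9, Gp1ba, Treml1 and Clec1b held at most 6. Red cell genes were not called, with 6 of 7 positive at 10 mg/kg (summed 256 to 464 CPM against 230.5 to 257 CPM in the controls). With a red cell and platelet index as a covariate, Icam1 was the 1 member called at 10 mg/kg. Sele, Vcam1 and Vwf were no longer past the threshold, with log2 fold changes of 0.77 for Vcam1 and 1.99 for Vwf. Over all genes the count called fell from 112 to 6 in that fit. This index stood at 3.08 to 3.68 at 10 mg/kg and at 2.86 to 2.99 in the controls of the set, so the fit cannot tell the index from the exposure.

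The course of each member over the libraries was last set beside those of other genes, as log2(CPM + 0.5) minus the control mean of the own set, over 13 libraries and 13754 other genes. Only tested genes with a mean of at least 1 CPM and a proper gene name were ranked, so Sele and Selp could not be listed as neighbours. The libraries share a set and a control mean, and the 3 libraries at 10 mg/kg weigh most, so Pearson's r is a description. Among the ranked genes Icam1 was most like Iigp1, an interferon-induced GTPase (r = 0.948), Arpc1b of the actin-branching complex (0.947), Gfap (0.946), Ncf1 of the phagocyte oxidase (0.941) and C5ar1, the receptor of C5a (0.936). Sele, not ranked, had a higher r with Icam1 than any of these. Sele was most like Icam1 (0.978), Ccl12 (0.966), Acer2 (0.963), Ifi30 (0.956) and Osmr (0.949). Vwf was most like Parp14 (0.958), Msn (0.952), Cmklr1 (0.925), Ppard (0.925) and Sned1 (0.923), and Vcam1 like Icam1 (0.935), Ch25h (0.934), Cdh7 (0.932), Rhou (0.931) and Dctn5 (0.928). Among members, Icam1 had r of 0.978 with Sele, 0.935 with Vcam1, 0.905 with Vwf and 0.845 with Selp, and of -0.26 with Icam2 and -0.01 with Pecam1.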

How the data were processed

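Olfactory bulb RNA of 13 samples was read from 1 deposited table with a raw count and an FPKM value per gene and library. Per the submitters' processing notes, HISAT2 and mm10 were used, and no source used here names the counting program, annotation release or strand setting. The deposited FPKM equalled count over total and a gene constant in every library (largest relative deviation 5.88e-07 over 2894 genes of high count). Groups follow the sample titles. Counts as deposited by the authors were tested with edgeR 4.0.16 in R 4.3.3 (quasi-likelihood test, robust, with TMM and filterByExpr). All 13 libraries in their 4 groups entered 1 model, with Benjamini-Hochberg adjustment over the 17467 genes kept and a threshold of 0.05. The standard error is the fold change over the square root of F, and intervals from it are approximate. The fit was checked on simulated data. No replicates agreed within sampling noise (lowest mean chi-square per gene 6.09). The members and lists were chosen with earlier results of these data known. From each list the called genes (at most 4) or the 2 of smallest p were eligible to be named, and S100a8, Ngp, Plac8, Retnlg, Ly6g, Cd8a, the low platelet genes, Gp1bb, Itgb3, Cdh5, Abcb1a, the tissue markers and genes listed as too low were named after their values were seen. Alternatives were DESeq2 1.42.0, limma 3.58.1 (voom, and trend on log2 of FPKM + 1), RLE factors, other filters, separate fits, a replicate block, covariates and leaving out each library. Gene overlaps are from GENCODE M21. Some genes of the lists are not reported here by name.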

Additional observations from a re-analysis of the deposited data

Results flagged for a closer look

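In the first-set controls, the 1 group of 4 libraries, Dixon's gap ratio was above its 95% critical value for 5 of the values given above. Vcam1 had a ratio of 0.855 (highest library replicate 4, 21.7 CPM), Pecam1 of 0.830 (replicate 1, 22.8 CPM) and Selp of 1 (replicate 1, whose 2 counts were the only Selp reads of the group). A group with reads in 1 library only always gives a ratio of 1, so nothing is read from the Selp value. The ratio of Icam1 to Icam2 gave 0.833 and that of Icam1 to the endothelial index 0.845, both with replicate 4 highest. These ratios share the Icam1 value of that library and are not separate observations. The members other than Sele, the member ratios and the index were all screened. Chance puts about 1 in 20 groups past this value for each of them, and the groups of 3 libraries were not tested. The response of Icam1 differed between the doses by 2.08 on the log2 scale (edgeR adjusted p = 0.0433), with Icam1 higher in 3 of 3 exposed libraries at each dose. Icam1 was chosen for its rise at 10 mg/kg, so this difference is a description and no independent evidence.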

How the results depend on the processing

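At 10 mg/kg the genes called (112) were 277 with DESeq2, 72 with limma on FPKM, 69 with at least 1 CPM in every library, 4 with separate fits, 5 with the replicate block and 6 with the red cell and platelet covariate. Leaving out 1 library gave 21 to 138. The members called (4) were 1 with separate fits, the replicate block or that covariate, and 3 to 4 with 1 library left out.

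At 3 mg/kg the genes called (0) were 17 with DESeq2, 2 with limma-voom, 2 with limma on FPKM, 9 with separate fits and 1 with the endothelial covariate, and 0 to 2 with 1 library left out (2 without exposed replicate 2 of the first set, or without control or exposed replicate 1 of the second). Members called (0) were 1 with limma-voom.

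For the difference between the dose responses the genes called (1) were 9 with DESeq2, 2 with no filter and 0 with limma-voom, limma on FPKM, the replicate block and either covariate, and 0 to 6 with 1 library left out. The members called (1) were 0 in those 5 settings with no call, and 0 to 1 with 1 library left out. Between the control sets 3364 genes became 23 with the endothelial covariate and 1340 to 4073 with 1 library left out (2069 and 2142 without control replicate 1 or 2 of the first set), and 3 members became 0 and 2 to 3. Ordered by CPM in place of FPKM, 2, 5, 3 and 2 members changed place in the first-set controls, at 3 mg/kg, in the second-set controls and at 10 mg/kg.

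The members whose fold change turned sign were Pecam1 and Icam2. At 10 mg/kg Pecam1 was 0.0192 with limma-voom, 0.0150 with the red cell and platelet covariate and -0.135 to 0.120 with 1 library left out. Icam2 was 0.0050 with that covariate and -0.357 to 0.0160 with 1 library left out. At 3 mg/kg Icam2 was -0.0266 with the replicate block and -0.0280 to 0.259 with 1 library left out, and Pecam1 0.0194 with the endothelial covariate and -0.149 to 0.0348. The difference of Pecam1 was -0.0787 with the endothelial covariate and -0.0703 to 0.184 with 1 library left out. Between controls Pecam1 was 0.0268 with no filter, 0.286 with the endothelial covariate and -0.167 to 0.0875 with 1 library left out. The cause was not tested.

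Replicate numbers did not pair the samples: 2 of 6 same-numbered pairs correlated above 0.1, and 1 of 6 exposed libraries correlated best with its own number. Sele and Selp rest on few counts, and with 3 libraries a group small changes were not detectable.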

Other observations

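Vessel wall and immune cells beside the endothelium showed few calls. Of 15 pericyte, smooth muscle and fibroblast genes none was called at either dose (medians 0.19 at 10 mg/kg and -0.02 at 3 mg/kg), with Notch3, a receptor of mural cells, at 0.61 (SE 0.22, adjusted p = 0.348 with edgeR) at 10 mg/kg. Of 12 tested microglial genes 1 rose at 10 mg/kg, C1qa, a chain of complement C1q (0.84, SE 0.17, adjusted p = 0.0360 with edgeR), and the list had medians of 0.10 and 0.03. Among red cell genes Slc4a1, the anion exchanger of erythrocytes, stood at 4.16 (SE 0.94, adjusted p = 0.0669 with edgeR) at 10 mg/kg.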
